A study of Mus musculus with 30 samples.

Results

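The genes described here are 10 mouse genes known to be switched on by interferon: Ifit1, Ifit2 and Ifit3 of the IFIT family, Mx1, Isg15, Rsad2 and Usp18, and the genes of small membrane proteins Ifi27l2a, Ly6e and Bst2. They were taken by symbol from a table of 13788 genes measured in cultured microglia, the resident macrophages of the brain. All 10 were present, and all 10 were among the 13722 genes tested. The list was chosen from results of these same libraries, and which comparison guided it is not recorded. The values below therefore describe these genes, and their p-values over all genes are no independent test of them.

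The study measured RNA in primary microglia from mouse brains, grown for 5 to 8 days and harvested by shaking them off. There were 10 groups of 3 libraries each. Cells labelled WT and cells labelled PD-1 KO, a knockout of the gene for the immune checkpoint receptor PD-1 (Pdcd1), were sampled at 0 h, at 2 h and 8 h without amyloid-beta, and at 2 h and 8 h in a conditioned medium that contained amyloid-beta, the peptide of Alzheimer plaques. All groups shared the method of primary culture and of harvest. The medium of the untreated cultures, the strain, age and sex of the mice, and whether libraries of a group came from separate animals are not given in the sources used here. Each p-value thus reflects only how far these libraries vary, which may be technical. The amyloid-beta was given within a conditioned medium, and its part and that of the medium's other contents cannot be told apart.

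Type I interferon binds its receptor and activates the kinases JAK1 and TYK2, which phosphorylate STAT proteins. A complex that holds STAT2 and IRF9 then binds the interferon-stimulated response element (ISRE) in the promoters of genes such as the ones described here. Interferon gamma acts through another element, the gamma-activated site (GAS). Microglia respond to type I interferon, and an interferon-responsive state of microglia is known from ageing and amyloid-bearing brain.

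Promoter sequences are shown because these genes share a direction in several comparisons and 5 of them carry the element named above. RefSeq promoter windows on GRCm38.p6, from 250 bases before to 50 bases after a start site, were found for 6 of the 10 genes, with 2 windows for Ifit2. The entries missing were Mx1, Ifi27l2a, Ly6e and Usp18. An ISRE was searched on both strands as 2 copies of GAAA separated by any 2 bases, and matches may overlap. It was present in 5 of the 6 genes and in 3.44% of all 32851 windows. Each stretch below runs from position -200 to position -51 on the gene's own strand, with ISRE matches in capitals.
Isg15: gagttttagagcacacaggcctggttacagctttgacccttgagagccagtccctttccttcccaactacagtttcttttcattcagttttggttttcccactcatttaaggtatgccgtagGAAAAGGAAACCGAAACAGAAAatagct
Ifit1: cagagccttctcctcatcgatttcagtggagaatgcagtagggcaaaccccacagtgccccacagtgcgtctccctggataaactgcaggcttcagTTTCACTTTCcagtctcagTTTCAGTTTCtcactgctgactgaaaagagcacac
Ifit3: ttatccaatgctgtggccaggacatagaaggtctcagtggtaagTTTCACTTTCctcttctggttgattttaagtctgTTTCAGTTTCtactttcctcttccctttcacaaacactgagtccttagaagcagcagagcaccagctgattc
Rsad2: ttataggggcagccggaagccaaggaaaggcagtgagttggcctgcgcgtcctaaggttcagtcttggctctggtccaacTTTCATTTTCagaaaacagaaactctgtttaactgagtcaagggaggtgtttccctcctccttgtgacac
Bst2: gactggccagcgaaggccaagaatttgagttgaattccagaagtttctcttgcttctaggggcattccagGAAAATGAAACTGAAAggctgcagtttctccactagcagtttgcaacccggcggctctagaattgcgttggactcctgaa

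The stretches lie on GRCm38.p6 at chr4:156200869-156201018 (minus strand, Isg15), chr19:34640689-34640838 (plus, Ifit1), chr19:34583329-34583478 (plus, Ifit3), chr12:26456503-26456652 (minus, Rsad2) and chr8:71537523-71537672 (minus, Bst2). Isg15 had 3 overlapping matches between positions -78 and -57, and Bst2 had 2 overlapping matches between -130 and -115. Ifit1 had 2 matches starting at -104 and -85, Ifit3 had 2 starting at -156 and -122, and Rsad2 had 1 starting at -120, all 5 on the opposite strand. The motif of a GAS, TTCNNNGAA on both strands, matched in 2 of the 6 genes and in 8.30% of windows. In Bst2 it lay at -136 to -128 and overlapped the first ISRE match, and in Ifit2 it lay at -241, outside the stretch length shown for the others. Ifit2 had no ISRE match of this spelling in either window. A match describes letters, and binding was not measured.

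In the GENCODE vM21 annotation of the same build (mm10 in the submitters' notes), the IFIT genes are neighbours on the plus strand of chromosome 19: Ifit2 at chr19:34550694-34576419, Ifit3 at chr19:34583531-34588731 and Ifit1 at chr19:34640871-34650009. Mx1 lies at chr16:97447035-97462907, Isg15 at chr4:156199424-156200818, Rsad2 at chr12:26442746-26456452 and Ifi27l2a at chr12:103442167-103443680, all on the minus strand. Ly6e lies at chr15:74955051-74959905 and Usp18 at chr6:121245906-121270917, on the plus strand, and Bst2 at chr8:71534255-71537456 on the minus strand. Ifit3 has a near-identical copy, Ifit3b, in the table, and reads may be split between them. Exons of Usp18 overlap those of Gm44148, a non-coding gene on the opposite strand, and whether the counting used strand is not given in the sources used here.

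Values are read counts scaled by the authors to a common library size, called normalised values here, with a floor of 1. The reads recovered per library ran from 4227019 to 48509985, with a median of 9603082. None of the 10 genes lay at the floor in any library. Their lowest reads in a library ran from 2 for Mx1 to 369 for Bst2, so the low end of Mx1 is the least precise. Pdcd1 was above the floor in each of the 15 PD-1 KO libraries, from 6.02 to 25.3, and at the floor in each of the 15 WT ones, so its direction goes against the label, and these libraries are called by their label throughout. All 14 microglia markers were in the table, and none of the 13 markers of neutrophils, lymphocytes and red cells was. Every gene in the table reached a value of at least 12.2 in some library. Absence from it therefore does not show that a gene was not expressed. Astrocyte markers differed with the label: their summed value over 10 genes was 1298 to 3923 in the WT libraries and 11515 to 28826 in the PD-1 KO libraries. In RNA from mixed cells, fewer cells of a type and less RNA per cell cannot be told apart.

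Scaled by exon length, the genes spanned a wide range of levels. Bst2 (tetherin, which holds budding virions at the cell surface) was the most abundant, with a mean over the 30 libraries of 1326 per kilobase. Ifi27l2a followed at 559, Ly6e, which encodes a GPI-anchored surface protein, at 217, Ifit3 at 129 and Isg15 at 124 per kilobase. Ifit2 at 39.3, Rsad2 at 33.5, Ifit1 at 29.7, Usp18 at 27.8 and Mx1 at 15.7 per kilobase made up the lower end. All later values are normalised values without the length scaling. Genes counted below as higher or lower, or as having risen or fallen, had an adjusted p under 0.05, unless the count is of means.

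**Figure D1:**
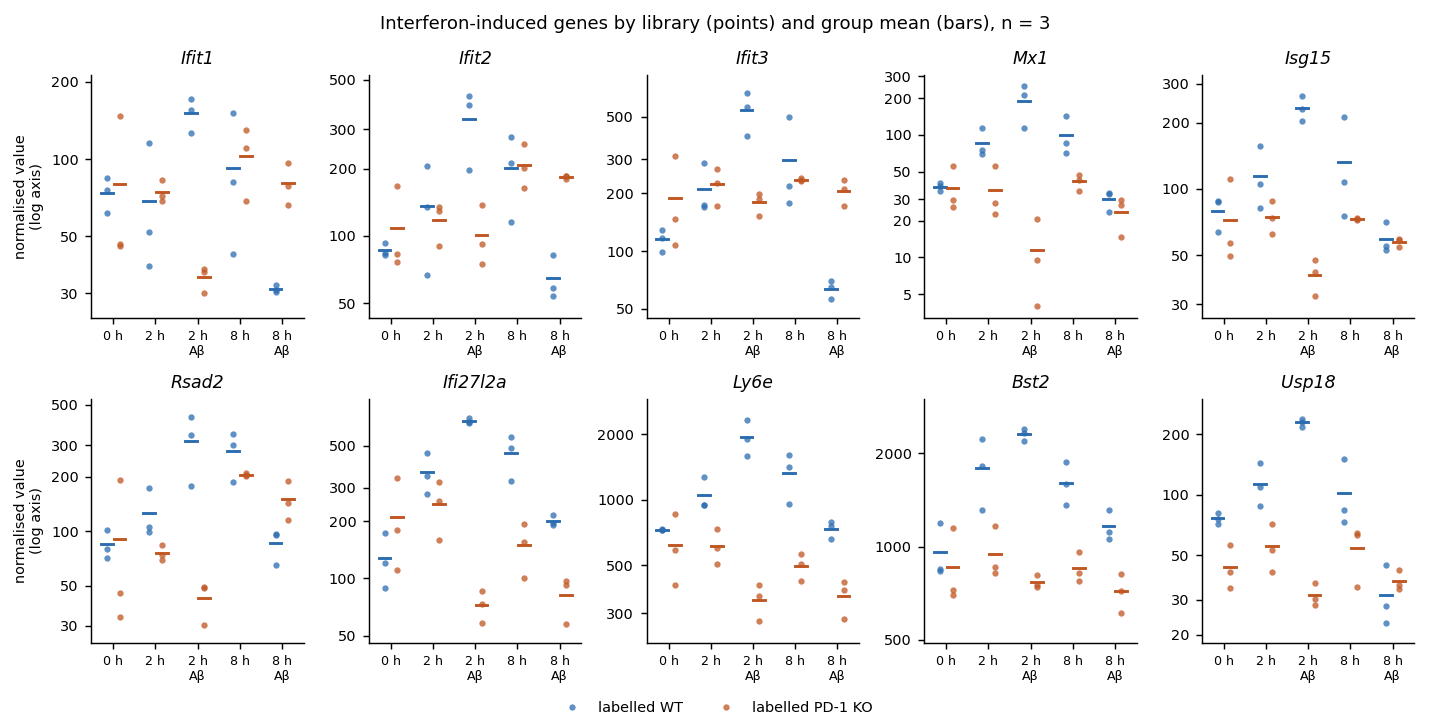
Normalised values (log axis) of the 10 genes in each of 30 libraries; points are libraries, bars are group means (n = 3), blue is labelled WT and orange labelled PD-1 KO, and the x axis gives hours and amyloid-beta medium (Aβ). The WT group with amyloid-beta at 2 h has the highest mean for all 10 genes.

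One group stood at the top for every gene. WT cells after 2 h with amyloid-beta medium had the highest mean of the 10 groups for 10 of 10 genes. The lowest mean was in PD-1 KO cells with amyloid-beta at 2 h for 6 genes, in WT cells with amyloid-beta at 8 h for Ifit1, Ifit2 and Ifit3, and in PD-1 KO cells with amyloid-beta at 8 h for Bst2. From the lowest to the highest group mean the span was 16.8-fold for Mx1, 9.34-fold for Ifi27l2a, 8.46-fold for Ifit3 and 3.23-fold for Bst2, with the other 6 genes between 4.86-fold and 7.47-fold. The steps between were small against the spread: with the groups ordered by mean, libraries of neighbouring groups overlapped at 7 or 8 of the 9 steps for every gene. The top group was clear of the next one for Ifi27l2a and Usp18 only, with no overlap there.

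At 2 h in cells labelled WT, all 10 genes had higher means with amyloid-beta medium, by 0.40 to 1.36 on the log2 scale (median 1.08, against -0.01 over all genes tested). Ifit3 stood at 170, 174 and 288 without and at 395, 661 and 558 with amyloid-beta. The groups did not overlap, and the difference was 1.36 ± 0.31 (SE) with an adjusted p of 0.524 (limma). Usp18, which encodes the protease that removes ISG15 from proteins and restrains the interferon receptor, stood at 109, 87.9 and 143 without and at 218, 239 and 231 with amyloid-beta. All 3 treated libraries lay above all 3 untreated ones (1.04 ± 0.28, adjusted p = 0.527). Ifit1, whose protein binds RNA with a foreign 5′ end, stood at 51.9, 38.5 and 116 against 127, 171 and 156, again with no overlap, although the untreated library at 116 came close (1.27 ± 0.39, adjusted p = 0.831). Libraries did not overlap for 7 genes, against 3.35% of all genes, and overlapped for Ifit2, Mx1 and Bst2. None of the 10 passed adjustment over all genes in limma (0% of all genes passed in either direction), and all 10 had an unadjusted p under 0.05, as did 681 of all genes. With voom weights on recovered reads 7 of the 10 passed, among 15 genes of all, and with limma's array weights 6 did, among 540 of all. Summed astrocyte markers overlapped between these groups (1609 to 2560 without, 2129 to 2417 with), as did summed microglia markers (130921 to 152183 and 135970 to 167999).

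In cells labelled PD-1 KO at 2 h the same genes lay the other way. All 10 had lower means with amyloid-beta medium, by 0.24 to 1.70 on the log2 scale in size (median -0.83, all genes 0.01). Ifi27l2a, a small hydrophobic membrane protein strongly induced by interferon, stood at 323, 159 and 256 without and at 86.1, 58.2 and 73.6 with amyloid-beta. The groups did not overlap (-1.70 ± 0.32, adjusted p = 0.112). Mx1, the gene of a dynamin-like GTPase, stood at 56.3, 27.9 and 22.5 without and at 9.57, 4.02 and 20.5 with amyloid-beta. The treated libraries all lay lower, the nearest pair being 20.5 and 22.5, and the treated values rest on 10, 2 and 17 reads (-1.70 ± 0.41, adjusted p = 0.571). Ly6e stood at 732, 507 and 600 against 405, 275 and 361, also without overlap (-0.82 ± 0.21, adjusted p = 0.577). Libraries did not overlap for 8 genes, against 6.57% of all genes, and overlapped for Ifit2 (-0.24 ± 0.35) and Ifit3 (-0.29 ± 0.31). None passed in limma, with 0% of all genes passing, and 7 of the 10 had an unadjusted p under 0.05, as did 615 of all genes. With array weights 3 passed, among 120 genes of all, and with voom 0 of the 10 and 0 of all. Without PD-1 KO 2 h replicate 2, 1 of the 10 passed. Of 14 microglia markers, 12 also had lower means with amyloid-beta (median -0.23, 0 passed), with overlapping sums of 86896 to 105457 without and 77080 to 93131 with it. Summed astrocyte markers overlapped too, at 14385 to 23554 without (median 18190) and 14643 to 28029 with amyloid-beta (median 27670). The part of both marker lists in the result was not tested.

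The test of the difference between these responses, PD-1 KO minus WT at 2 h, had all 10 genes below 0, from -0.69 for Bst2 to -2.79 for Mx1 (median -1.86, all genes 0.01). It passed for 2 of them, where 0.0510% of all genes passed as lower. These were Ifi27l2a at -2.64 ± 0.45 (adjusted p = 0.00934) and Ly6e at -1.70 ± 0.30 (adjusted p = 0.0151). Both calls were lost without the intensity trend (adjusted p = 0.0634 and 0.0843) and with voom (0.0784 and 0.0779). Mx1 (-2.79 ± 0.58, adjusted p = 0.056) and Isg15 (-1.92 ± 0.41, adjusted p = 0.0579) lay just past the threshold, and Usp18 stood at -1.80 ± 0.39 (adjusted p = 0.0708). The 2 calls also rested on single libraries: Ifi27l2a lost its call without any 1 of 3 of the 12 libraries (WT 2 h replicate 1, PD-1 KO 2 h replicate 1 or PD-1 KO 2 h amyloid-beta replicate 2) and Ly6e without any 1 of 7. Between 0 (without any of the 3 named above) and 6 genes (without WT 2 h replicate 3) then passed, with 4 without WT 2 h amyloid-beta replicate 1. Without WT 2 h replicate 2, PD-1 KO 2 h replicate 3, or WT 2 h amyloid-beta replicate 2 or 3, 1 gene passed.

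**Figure D2:**
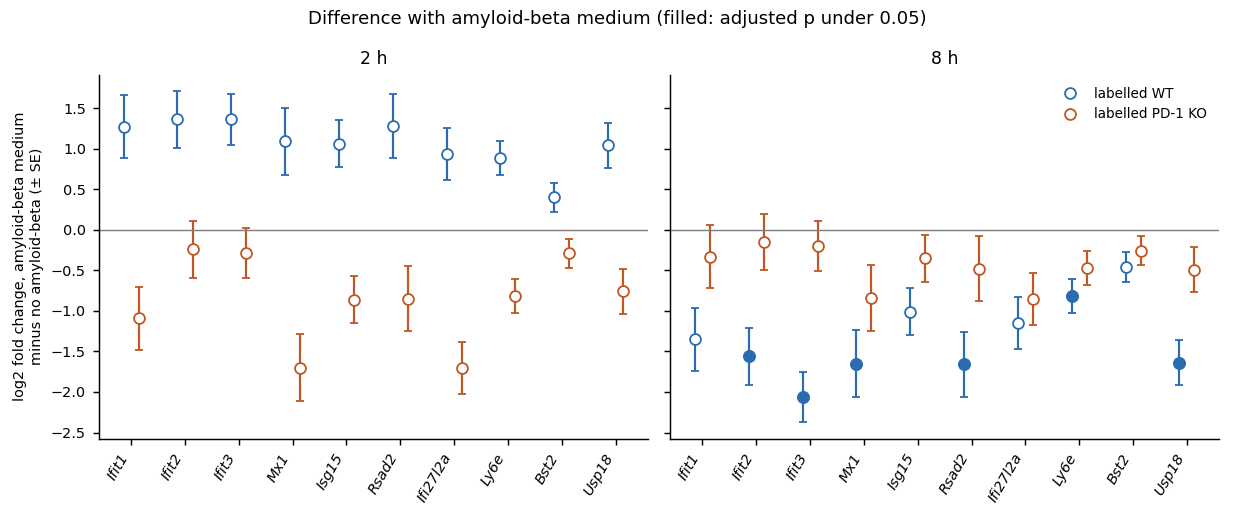
Log2 fold change with amyloid-beta medium against none (points, bars are SE, n = 3 against 3 in each) for the 10 genes at 2 h (left) and 8 h (right), in libraries labelled WT (blue) and PD-1 KO (orange); filled points have an adjusted p under 0.05. At 2 h all WT points lie above 0 and all PD-1 KO points below it, and at 8 h all 20 points lie below 0.

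At 8 h in cells labelled WT the direction was the reverse of that at 2 h. All 10 genes had lower means with amyloid-beta medium, and 6 fell: Ifit2, Ifit3, Mx1, Rsad2, Ly6e and Usp18, where 2.05% of all genes did (median -1.45, all genes -0.00). Ifit3 stood at 495, 218 and 178 without and at 56.2, 64.7 and 69.9 with amyloid-beta. All treated libraries lay below all untreated ones and close together (-2.06 ± 0.31, adjusted p = 0.000919). Usp18 stood at 151, 83.8 and 72.7 without and at 44.6, 27.9 and 22.9 with amyloid-beta, again with no overlap (-1.64 ± 0.28, adjusted p = 0.00178). Rsad2 encodes viperin, which makes a nucleotide that halts viral RNA synthesis. It stood at 347, 299 and 186 against 64.7, 97 and 95.2, with the groups apart (-1.66 ± 0.40, adjusted p = 0.0248). Ifit2 (-1.56 ± 0.35, adjusted p = 0.0163), Mx1 (-1.65 ± 0.41, adjusted p = 0.0306) and Ly6e (-0.82 ± 0.21, adjusted p = 0.038) were the other 3 that fell. Ifi27l2a (-1.15 ± 0.32, adjusted p = 0.0525), Isg15 (-1.01 ± 0.29, 0.0636) and Ifit1 (-1.35 ± 0.39, 0.0656) missed the threshold, and Bst2 stood at -0.46 ± 0.18 (0.214). Libraries did not overlap for 10 of 10 genes, against 12.7% of all genes. Of the 10 genes, 2 passed with quantile normalisation (Ifit3 and Usp18), 3 with only the 2 groups fitted (Ifit3, Rsad2 and Ifi27l2a) and 3 without the intensity trend (Ifit2, Ifit3 and Usp18). Ifit3 and Usp18 passed without any 1 library, while 2 of the 10 genes passed without WT 8 h replicate 1, WT 8 h amyloid-beta replicate 1 or WT 8 h amyloid-beta replicate 3, and 3 without WT 8 h amyloid-beta replicate 2. Astrocyte markers moved in the same direction in this comparison: 4 of 10 fell, and their summed value was 1835 to 3349 without and 1298 to 1418 with amyloid-beta. Of 11 oligodendrocyte lineage markers 4 fell too, with overlapping sums (3244 to 3792 and 2494 to 3409). Summed microglia markers were 117496 to 130055 without and 109828 to 112041 with it, and did not overlap either. The part of these markers in the result was not tested.

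In cells labelled PD-1 KO at 8 h all 10 genes again had lower means with amyloid-beta, but by less (median -0.41, all genes 0.02). None passed (0.0583% of all genes passed, adjusted p for the 10 from 0.438 to 0.961 in limma), and 2 had an unadjusted p under 0.05, as did 1036 of all genes. Voom also called 0. Ifi27l2a stood at 156, 100 and 194 without and at 97.1, 57.4 and 92.2 with amyloid-beta, the groups just apart. Ifit3 stood at 239, 230 and 235 against 211, 234 and 171, with overlap. There was no overlap for 5 genes, against 8.07% of all genes. Microglia markers lay lower too: 11 of 14 had lower means with amyloid-beta (median -0.37, 0 passed), and their sums did not overlap, at 97853 to 116947 without and 77349 to 87607 with it. Summed astrocyte markers overlapped, at 16523 to 20221 without and 15834 to 28826 with amyloid-beta. The part of these markers was not tested. The difference between the genotypes' responses at 8 h, PD-1 KO minus WT, was above 0 for 10 of 10 genes (median 0.92, all genes 0.01), opposite to 2 h. None passed (0% of all genes; lowest adjusted p 0.246 in limma, 4 of the 10 and 810 of all genes with an unadjusted p under 0.05, 0 by voom). With array weights 2 did, among 192 genes of all.

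Among the tests of a difference in the amyloid-beta effect, the change of the WT response from 2 h to 8 h was passed by the most genes. The 8 h minus 2 h difference in the amyloid-beta effect was below 0 for all 10 (median -2.65, all genes -0.01), and 9 of 10, all but Bst2, passed as lower, where 0.270% of all genes, 37 in number, did. Ifit3 had the lowest value, -3.43 ± 0.44 (adjusted p = 0.000121), followed by Rsad2 at -2.93 ± 0.57 (0.0155), Ifit2 at -2.92 ± 0.49 (0.00552), Mx1 at -2.74 ± 0.58 (0.0313) and Usp18 at -2.68 ± 0.39 (0.000796). Ifit1 stood at -2.62 ± 0.55 (0.028), Isg15, the ubiquitin-like modifier, at -2.08 ± 0.41 (0.0164), Ifi27l2a at -2.08 ± 0.45 (0.0339) and Ly6e at -1.70 ± 0.30 (0.00785). Ifit2, Ifit3, Ly6e and Usp18 passed without any 1 of the 12 libraries. The count fell to 4 without WT 2 h replicate 2, WT 2 h amyloid-beta replicate 3, WT 8 h replicate 1 or WT 8 h amyloid-beta replicate 1, and to 5 without WT 2 h replicate 1 or WT 8 h amyloid-beta replicate 2. Fitted on these 4 groups alone, 2 passed, and with quantile normalisation 4 did. The libraries at 8 h carry a separate run of numbers in their titles, and that run and the time cannot be told apart. In cells labelled PD-1 KO the same difference was 0.03 to 0.86, and none passed (0% of all genes, every adjusted p 1 in limma, 0 by voom, 0 of the 10 with an unadjusted p under 0.05).

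Before any amyloid-beta, the labelled genotypes differed little in these genes at 0 h. For PD-1 KO minus WT, 7 of the 10 lay below 0. Usp18 alone passed as lower, as 6.88% of all genes did, so the number is near that over all genes. It stood at 34.3, 41.2 and 56 in PD-1 KO libraries against 81.2, 75.9 and 71.1 in WT. The groups did not overlap, as in 14.6% of all genes, and the difference of -0.81 ± 0.28 had an adjusted p of 0.0374. Its call was lost without any 1 library of these groups other than PD-1 KO 0 h replicate 3: 0 of the 10 passed without WT 0 h replicate 1, 2 or 3 or PD-1 KO 0 h replicate 2, and 2 without PD-1 KO 0 h replicate 3. With voom 0 passed. The median over the 10 genes was -0.15 (all genes -0.00).

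At 2 h without amyloid-beta, 8 of the 10 genes lay below 0 for PD-1 KO minus WT (median -0.64, all genes 0.01). Of these, 4 passed as lower (Mx1, Ly6e, Bst2 and Usp18), where 13.4% of all genes did. Bst2 stood at 1166, 820 and 858 against 1316, 2230 and 1828 in WT, with no overlap (-0.90 ± 0.18, adjusted p = 0.000326). Usp18 stood at 71.2, 41.1 and 53.2 against 109, 87.9 and 143, also apart (-1.03 ± 0.28, adjusted p = 0.00512). Ly6e differed by -0.78 ± 0.21 (adjusted p = 0.00566) and Mx1 by -1.33 ± 0.41 (0.0141), the latter not past the threshold without WT 2 h replicate 3 or PD-1 KO 2 h replicate 2 or 3. There was no overlap for 5 genes, against 20.3% of all genes. None of the IFIT genes passed at 2 h. Of 14 microglia markers 6 were lower and 2 higher there, and their sums, 86896 to 105457 against 130921 to 152183 in WT, did not overlap. At 8 h without amyloid-beta the picture was similar: 8 of the 10 genes lay below 0 (median -0.80, all genes -0.01). Of these, 5 passed as lower (Ifi27l2a, Ly6e, Bst2, Usp18 and Mx1), where 9.01% of all genes did. Ly6e stood at 561, 422 and 506 against 1418, 952 and 1602, with no overlap (-1.39 ± 0.21, adjusted p = 1.28e-05). Ifi27l2a stood at 156, 100 and 194 against 560, 326 and 486, and these groups were also apart (-1.62 ± 0.32, adjusted p = 0.000268). No overlap was seen for 6 genes, against 17.8% of all genes. Without WT 8 h replicate 1 or PD-1 KO 8 h replicate 3, 3 of the 10 passed, and Usp18 stood at -0.58 or -0.60 rather than -0.89. Mx1 differed by -1.18 ± 0.41 (adjusted p = 0.0332). Its call was lost without any 1 of 4 of the 6 libraries (adjusted p up to 0.164 in limma). With only the 2 groups fitted, Usp18 had an adjusted p of 0.0716. Of the microglia markers 3 were lower and 4 higher at 8 h, and their sums, 97853 to 116947 against 117496 to 130055 in WT, lay just apart. The part of these markers at either time was not tested.

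With amyloid-beta at 2 h, all 10 genes were lower in PD-1 KO libraries, where 16.7% of all genes were (median -2.49, all genes 0.02). Mx1 differed most: it stood at 9.57, 4.02 and 20.5 against 113, 249 and 211 in WT. The highest PD-1 KO library lay far under the lowest WT library, and the fitted difference was -4.12 ± 0.41 (adjusted p = 8.43e-09). Ifi27l2a stood at 86.1, 58.2 and 73.6 against 661, 670 and 704, the WT libraries lying close together and far above (-3.22 ± 0.32, adjusted p = 6.3e-09). Usp18 stood at 36.4, 28.1 and 30.2 against 218, 239 and 231 (-2.83 ± 0.28, adjusted p = 5.98e-09), and Rsad2 at 48.8, 48.2 and 30.2 against 177, 430 and 342 (-2.81 ± 0.40, adjusted p = 2.3e-06). Neither gene overlapped. Isg15 stood at 47.8, 42.2 and 32.6 against 204, 230 and 264 (-2.49 ± 0.29, adjusted p = 9.7e-08), and Ly6e at 405, 275 and 361 against 1594, 2316 and 1903 (-2.48 ± 0.21, adjusted p = 7.91e-10). The smallest differences were those of Ifit3 (-1.56 ± 0.31, adjusted p = 0.000188), Bst2 (-1.59 ± 0.18, 7.35e-08), Ifit2 (-1.68 ± 0.35, 0.000302) and Ifit1 (-2.09 ± 0.39, 9.16e-05). Libraries did not overlap for 10 of 10 genes, against 19% of all genes, and all 10 passed without any 1 library. The WT group is the same one whose values were the highest of all groups, so this comparison and the amyloid-beta comparisons at 2 h share libraries.

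With amyloid-beta at 8 h the 10 genes split. Of the 10, 3 were higher in PD-1 KO libraries (Ifit1, Ifit2 and Ifit3), where 22% of all genes were higher, so the number of higher genes is near that over all genes. Another 3 were lower (Ifi27l2a, Ly6e and Bst2), where 11.7% of all genes were lower, and 4 did not pass. Ifit1 stood at 96.3, 78.6 and 66.3 against 30.8, 32.3 and 30.3 in WT, with no overlap (1.32 ± 0.39, adjusted p = 0.00893). With quantile normalisation its value was 0.58 and the call was lost (adjusted p = 0.261). Ifit2 stood at 186, 186 and 179 against 58.4, 82.3 and 53.8 (1.51 ± 0.35, adjusted p = 0.00103), and Ifit3 at 211, 234 and 171 against 56.2, 64.7 and 69.9 (1.67 ± 0.31, adjusted p = 8.5e-05). In both, every PD-1 KO library lay above every WT one. The membrane protein genes lay on the other side: Ifi27l2a stood at 97.1, 57.4 and 92.2 against 215, 191 and 197 (-1.32 ± 0.32, adjusted p = 0.00162), and Ly6e at 416, 282 and 385 against 660, 787 and 756 (-1.04 ± 0.21, adjusted p = 0.000311). Bst2 stood at 818, 612 and 718 against 1318, 1060 and 1112 (-0.70 ± 0.18, adjusted p = 0.00317), and none of these 3 overlapped. Mx1 (-0.37 ± 0.41), Isg15 (-0.04 ± 0.29), Rsad2 (0.79 ± 0.40) and Usp18 (0.26 ± 0.28, but -0.59 with quantile normalisation) did not pass, and Rsad2 alone of these 4 had libraries that did not overlap. Libraries did not overlap for 4 genes with higher and 3 with lower values, against 27.8% of all genes in each direction, so the number without overlap is not far above that over all genes. All 6 calls held without any 1 library.

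**Figure D3:**
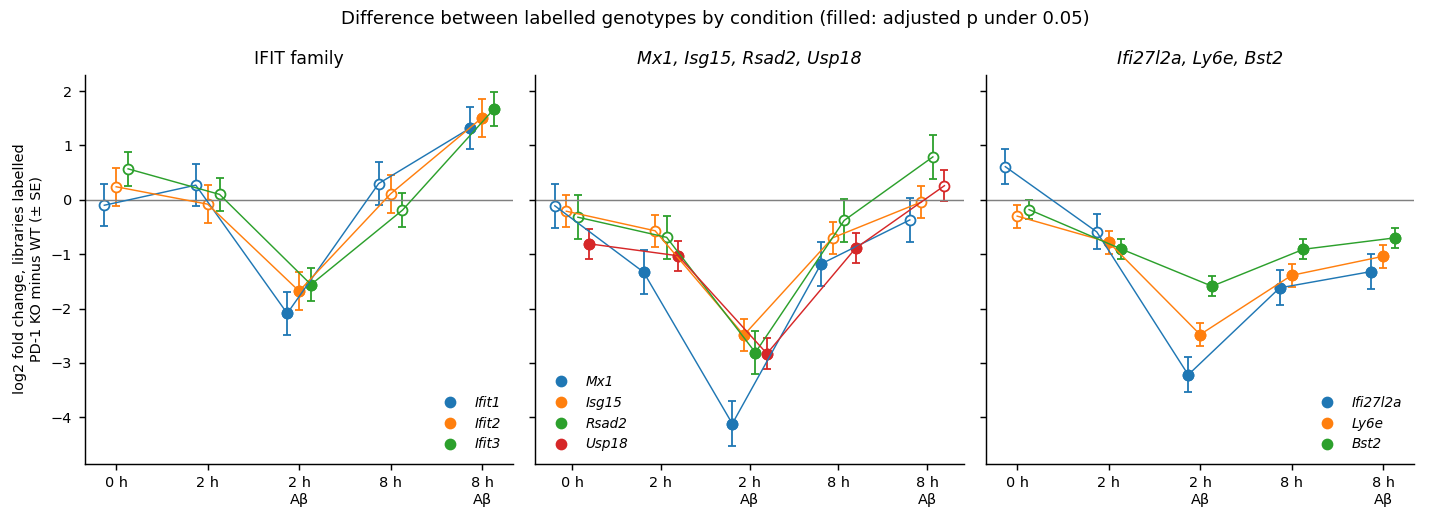
Log2 fold change of libraries labelled PD-1 KO minus WT (points, bars are SE, n = 3 against 3) in 5 conditions on the x axis (hours, Aβ for amyloid-beta medium), in 3 panels of genes; filled points have an adjusted p under 0.05. All 10 genes are lowest at 2 h with amyloid-beta, and at 8 h with amyloid-beta the IFIT genes lie above 0 while Ifi27l2a, Ly6e and Bst2 lie below it.

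Astrocyte markers moved with every genotype comparison: 10 of 10 were higher in PD-1 KO libraries in each of the 5. With amyloid-beta at 2 h their sum was 14643 to 28029 against 2129 to 2417 in WT, and at 8 h it was 15834 to 28826 against 1298 to 1418. Of all 13722 genes tested, 1896 were higher in PD-1 KO libraries at 0 h, 2580 at 2 h and 2471 at 8 h. In amyloid-beta medium 3051 were higher at 2 h and 3023 at 8 h. Summed microglia markers were 77080 to 93131 against 135970 to 167999 at 2 h with amyloid-beta, with 8 of 14 lower and 1 higher, and 77349 to 87607 against 109828 to 112041 at 8 h with amyloid-beta, with 5 lower and 4 higher. The sums of both lists did not overlap between the labelled genotypes at either time with amyloid-beta. Oligodendrocyte lineage markers were higher too, 7 of 11 at 0 h, 7 at 2 h with or without amyloid-beta, 6 at 8 h and 10 at 8 h with amyloid-beta, and 3 were lower at 2 h with or without it. Their sums did not overlap in any of the 5 comparisons, for example 6541 to 7635 against 2494 to 3409 in WT at 8 h with amyloid-beta. Of 9 tested fibroblast and vascular markers, 5 were higher at 2 h and 7 at 8 h with amyloid-beta, with sums of 1153 to 1572 against 503 to 590 and of 964 to 1688 against 251 to 555. Summed neuron markers, over 7 genes, were 1004 to 1612 against 685 to 916 at 2 h and 1120 to 1760 against 505 to 548 at 8 h with amyloid-beta. The part of cell makeup in these differences was not tested. Quantile normalisation moved the split over all genes: the share of called genes that were higher in PD-1 KO libraries was 57.1% to 66.8% over the 5 comparisons, and 40.4% to 51.3% with it. It moved the median of all genes from 0.02 to -0.11 at 2 h with amyloid-beta. All 10 genes were lower there on that scale too.

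Time in culture without amyloid-beta also went with these genes in WT cells. From 0 h to 2 h, Ifi27l2a and Bst2 rose, where 2.59% of all genes did. Ifi27l2a stood at 174, 121 and 89.2 at 0 h and at 278, 347 and 460 at 2 h, without overlap (1.51 ± 0.32, adjusted p = 0.00458). Bst2 rose by 0.89 ± 0.18 (adjusted p = 0.00381). With only the 2 groups fitted both calls were lost (adjusted p = 0.0778 for Ifi27l2a and 0.149 for Bst2). Microglia markers moved the same way: 12 of 14 had higher means (median 0.40), 5 of them rose, and their sums did not overlap, at 105846 to 120367 at 0 h and 130921 to 152183 at 2 h. No overlap was seen for 6 genes, against 9.56% of all genes. From 0 h to 8 h, 5 genes rose (Ifit3, Rsad2, Ifi27l2a, Ly6e and Bst2), where 3.0% of all genes did, and 7 genes had no overlap (12.5% of all genes). Rsad2 stood at 70.8, 80 and 102 at 0 h and at 347, 299 and 186 at 8 h, with no overlap (1.67 ± 0.40, adjusted p = 0.011), and Ifi27l2a at 560, 326 and 486 at 8 h (1.84 ± 0.32, adjusted p = 0.000472). Without WT 8 h replicate 1, the library with the highest value for 9 of the 10 genes in its group, 1 of the 10 passed, and Ifit3 stood at 0.78 (adjusted p = 0.135) rather than 1.22. Its call was also lost with only the 2 groups fitted (0.0958) and with voom (0.0694). Of the microglia markers 4 rose from 0 h to 8 h, with overlapping sums, and their part at either time was not tested. Without WT 0 h replicate 2 or 3, 3 passed. In PD-1 KO cells none passed at 2 h (0.634% of all genes did in either direction; adjusted p from 0.798 to 0.967 in limma, 0 by voom, 0 of the 10 with an unadjusted p under 0.05). At 8 h Rsad2 alone rose, where 1.5% of all genes did, from 33.3, 45.5 and 192 to 210, 202 and 204 (1.61 ± 0.40, adjusted p = 0.0191). The 0 h library at 192 lay just under the 8 h ones, so the groups did not overlap, as in 7.65% of all genes. The call was lost without PD-1 KO 0 h replicate 1 or 2 or any 1 of the 8 h libraries (0 passed) and with only the 2 groups fitted (adjusted p = 0.227), and 2 genes passed without PD-1 KO 0 h replicate 3. The 8 h libraries' separate run of title numbers and the hours in culture cannot be told apart.

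The spread within groups was shared between the genes. PD-1 KO 0 h replicate 3 had the highest value of its group for 10 of 10 genes, for example 147 against 45.7 and 46.9 for Ifit1 and 192 against 33.3 and 45.5 for Rsad2. PD-1 KO 2 h replicate 1 was highest for 10 of 10, WT 2 h replicate 3 and WT 8 h replicate 1 for 9 each, and PD-1 KO 8 h replicate 1 for 8. WT 2 h amyloid-beta replicate 1 was lowest for 9 of 10. The values of the 10 genes within a group therefore do not vary independently, and a count of genes past a threshold is not a count of separate observations. The SD of log2 values within groups ran from 0.25 for Bst2 and 0.30 for Ly6e to 0.56 for Rsad2 and 0.55 for Mx1.

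Among themselves the genes followed one profile to different degrees. Centred on the log2 scale over the 10 groups, their mean profile was 1.49 in WT with amyloid-beta at 2 h, 0.74 in WT at 8 h and 0.42 in WT at 2 h. It was lowest in PD-1 KO with amyloid-beta at 2 h (-1.0) and in WT with amyloid-beta at 8 h (-0.60). Isg15 lay nearest to the mean of the others, with a root mean square difference of 0.14 log2 over the 10 groups, and Ifit3 (0.57), Ifi27l2a (0.55) and Mx1 (0.53) lay farthest. The IFIT genes and Ifi27l2a parted most in the amyloid-beta groups at 8 h: Ifit3 stood at -1.58 in WT and 0.09 in PD-1 KO, and Ifi27l2a at 0.01 and -1.31.

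**Figure D4:**
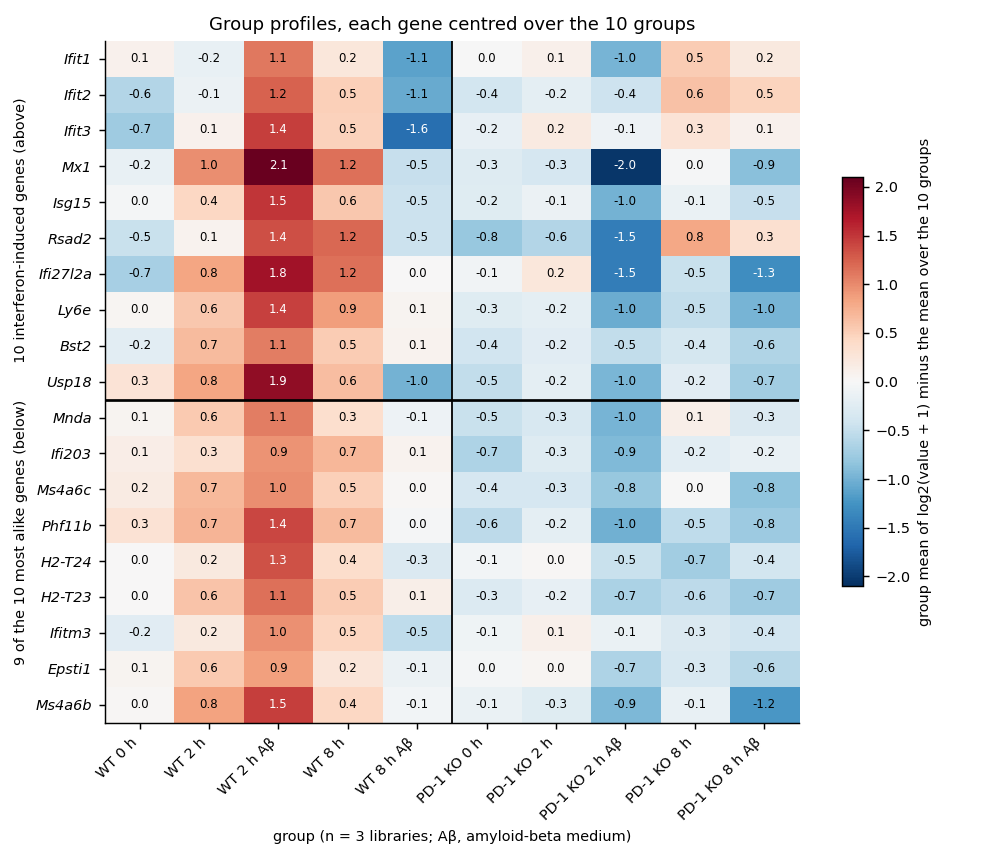
Group means of log2(value + 1), each gene centred over the 10 groups (columns, n = 3 libraries each; red above, blue below the gene's own mean), for the 10 interferon-induced genes and, under the line, 9 of the 10 genes of most alike profile. The column of WT cells with amyloid-beta at 2 h is the highest for every one of the 10 genes above the line.

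Outside the list, 9 of the 10 genes whose profile was most like the mean of the 10, among 10710 genes with a mean value of at least 50, were Mnda (root mean square difference 0.27), Ifi203 (0.34), Ms4a6c (0.35) and Phf11b (0.36), then H2-T24, H2-T23, Ifitm3, Epsti1 and Ms4a6b (0.37 each). The median over all those genes was 0.69. The measure was taken over 10 group means of the same libraries and has no test.

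Other genes of the pathway were counted from lists, beside the shares of all genes given above. No interferon ligand of 9 listed, Ifnb1 and Ifng among them, was in the table. The table holds no genes with only low values, so this does not show that the ligands were not expressed. Of 9 receptors and relays, 7 were lower in PD-1 KO libraries at 2 h with amyloid-beta (median -0.36), with Stat2 at -1.41 and Irf9 at -1.19, both parts of the complex that binds the ISRE. At 8 h with amyloid-beta 1 of these 9, Irf9 at -0.41, was lower. In the change of the WT response from 2 h to 8 h, 1 of the 9, Stat2 (-0.96, adjusted p = 0.0164), passed as lower. Of 12 transcription factors and sensors, 9 were lower in PD-1 KO libraries at 2 h with amyloid-beta, with Zbp1 at -3.54, Irf7 at -3.03, Dhx58 at -2.09 and Ddx58 at -1.17. In the difference between the genotypes' amyloid-beta responses at 2 h, 2 of the 12 passed, Irf7 at -2.24 (adjusted p = 0.00537) and Zbp1 at -2.37 (0.0321). Irf7, which carries type I interferon production forward, stood at 369, 447 and 392 in WT and at 54.5, 38.1 and 54.3 in PD-1 KO with amyloid-beta at 2 h. These groups did not overlap.

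Of 4 genes for attaching ISG15 to proteins, 3 were lower in PD-1 KO libraries at 2 h with amyloid-beta: Ube2l6 at -1.0, Herc6 at -0.87 and Uba7 at -0.84. Of 8 tested relatives of the 10 genes, 4 were lower there (Mx2 at -1.92, Ifitm3 at -1.10, Ifitm2 at -0.48 and Ifi27 at -0.45). At 8 h with amyloid-beta the same list had 2 higher: Ifit3b at 2.35 and Cmpk2, the neighbour of Rsad2 that supplies its nucleotide substrate, at 1.56. Ifit3b stood at 22.3, 8.82 and 10.5 in WT and at 73, 102 and 44.6 in PD-1 KO there. Both Ifit3 and its copy were thus higher there. Ifit3b also lay above WT without overlap at 0 h, at 45.5 to 80 against 8.26 to 34.9. It did so too at 2 h without amyloid-beta, at 63.4 to 75.6 against 18.5 to 35.8. Libraries of Ifit3 overlapped in both of these comparisons. Ifit3b overlapped at 2 h with amyloid-beta and at 8 h without it, and its PD-1 KO group means ran from 66 to 81.3. Of 23 other antiviral genes, 21 were lower in PD-1 KO libraries at 2 h with amyloid-beta (median -1.69), with Oas3 at -5.47, Oas1g at -2.95, Oasl2 at -2.88 and Rtp4 at -2.62, and 10 were lower and 1 higher at 8 h with amyloid-beta.

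The guanylate-binding proteins and immunity-related GTPases, a group induced mainly by interferon gamma, did not share one direction. Of 10 tested, 4 were higher and 5 lower in PD-1 KO libraries at 2 h with amyloid-beta: Gbp5 at 3.62, Gbp2 at 2.35 and Gbp6 at 1.91 were higher, and Ifi47 at -1.63 was lower. Of all 13722 genes tested, 3051 were higher and 2290 lower in that comparison. At 8 h with amyloid-beta 5 were higher and 1 lower, with Gbp5 at 3.67 and Gbp2 at 2.93. Of 7 brakes on interferon signalling, 2 were higher at 2 h with amyloid-beta (Socs3 at 1.40 and Socs1 at 1.17) and 3 lower, Ptpn6 at -0.60 and Ptpn1 at -0.43 among them. With 3051 of all 13722 genes higher there, the number of higher brakes is near that over all genes. None of these 7 passed in WT with amyloid-beta at either time.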

How the data were processed

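RNA-seq values came from 30 libraries of cultured mouse microglia in 10 groups of 3, built with an Illumina TruSeq kit per the labels' protocols. The authors deposited 1 table of signal values, gene counts scaled to a common library size with a floor of 1; tools listed in the submitters' processing notes were DESeq2, Partek 6.6, HISAT 0.1.5 and R 3.0.2, with the build mm10. In the deposited signal, values above the floor were whole multiples of 1 read (tolerance 0.05 read, checked up to 5000 reads, 100.0% of values in every library), which gave 4227019 to 48509985 reads per library. The floor can hide up to 4 reads.

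Genes with a value of at least 10 in at least 3 libraries (13722 of 13788) were fitted on log2(value + 1) with limma 3.58.1 in R 4.3.3, with an intensity trend and 1 mean per group over all 30 libraries (20 residual degrees of freedom). Fold changes are on that scale. Tests were two-sided, with Benjamini-Hochberg adjustment over all tested genes within each of 17 comparisons and a threshold of 0.05. On simulated data for WT at 2 h, over 13736 genes, 82 of 100 genes changed 2-fold were recovered. Of 100 changed 4-fold, 95 were recovered, and 4 of 181 calls were false. Whether these shares hold for the measured libraries, where the 10 genes shared their spread within groups, was not tested. In the measured libraries 0 of 13722 genes passed in this comparison. Ifit3 stood at 1.36 on the log2 scale there, with an adjusted p of 0.524 (limma).

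The 10 genes and the other lists were chosen with earlier results of these data known. The text names all 10 genes, up to 4 genes per other list with the largest change past the threshold, and the 10 most alike profiles among genes with a mean of at least 50, except 1 gene that is not reported here and is left out of the lists' counts. Alternatives were other pseudocounts, filters, scalings, fits and each library left out. Limma's voom on the recovered reads was added after seeing the data. Promoters and locations came from RefSeq on GRCm38.p6 and GENCODE vM21, matched by symbol.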

Additional observations from a re-analysis of the deposited data

Results flagged for a closer look

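For 2 genes the amyloid-beta effect at 2 h differed between libraries labelled PD-1 KO and WT by the test of that difference: Ifi27l2a by -2.64 and Ly6e by -1.70 on the log2 scale. Both calls were lost without the intensity trend, with voom and without some single libraries.

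For 9 genes the amyloid-beta effect in WT cells differed between 8 h and 2 h by the test of that difference. The values, 8 h minus 2 h on the log2 scale, were -2.62 for Ifit1, -2.92 for Ifit2, -3.43 for Ifit3, -2.74 for Mx1, -2.08 for Isg15, -2.93 for Rsad2, -2.08 for Ifi27l2a, -1.70 for Ly6e and -2.68 for Usp18. With only these 4 groups fitted, 2 of the 9 passed. The 2 sets of tests share the WT libraries at 2 h.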

How the results depend on the processing

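Of 51 calls on the 10 genes over 17 comparisons, none changed sign under any alternative run, 29 held under every alternative other than leaving out a library, and 31 held without any 1 library. All 51 held with a pseudocount of 0, without the filter, with a filter of 50, with TMM factors and with array weights. With a pseudocount of 10, 50 held, with voom 45, without the intensity trend 43, with quantile normalisation 41, and with only the groups compared 35. Where a count of genes past the threshold moved, the cause was not tested. For amyloid-beta in WT at 2 h it was 6 with array weights and 7 with voom, against 0, and in PD-1 KO at 2 h 3 with array weights, against 0. For the difference between these it was 0 without the trend, 8 with array weights and 0 with voom, against 2, and at 8 h 2 with array weights, against 0. For amyloid-beta in WT at 8 h it was 2 with quantile normalisation, 3 with only the groups compared and 3 without the trend, against 6. For the WT effect at 8 h minus 2 h it was 4 with quantile normalisation and 2 with only the groups compared, against 9. Between genotypes it was 0 with voom at 0 h, against 1, and 8 with array weights at 2 h, against 4. For 2 h against 0 h in WT it was 0 with only the groups compared and 8 with array weights, against 2, and for 8 h against 0 h in PD-1 KO 0 and 2, against 1. With 1 library left out, the count ran from 0 to 1 for amyloid-beta in PD-1 KO at 2 h, 0 to 6 for the difference at 2 h, 2 to 6 in WT at 8 h and 4 to 9 for 8 h minus 2 h in WT. It ran from 0 to 2 between genotypes at 0 h, 3 to 6 at 8 h, 1 to 5 for 8 h against 0 h in WT and 0 to 2 in PD-1 KO. Among the values not past the threshold, a sign changed in 70 refits, 0 of which then passed. Examples were Ifit1 and Ifit3 between genotypes at 2 h (-0.41 and -0.30 with array weights), Ifit2 for amyloid-beta in PD-1 KO at 2 h (0.09 with array weights), Usp18 between genotypes at 8 h with amyloid-beta (-0.59 with quantile normalisation) and Isg15 there (-0.12 to 0.09 with 1 library left out). In WT at 8 h, 299 genes of all were called, against 1762 with array weights, 106 with voom, 68 with only the groups compared, 98 with quantile normalisation and 141 with a pseudocount of 10, and the share higher was 6.0%, against 28.8% with array weights. The planned edgeR test was not run, since the floor hides reads. No paired analysis was possible because the title numbers are unique to each library. Depth limits Mx1 most, with 2 reads in its lowest library.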
